A study of Mus musculus with 2 samples.

Results

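Dense clusters of distal open regions were examined in megakaryocyte progenitor primary cells of the mouse, profiled by ATAC-seq, in which the Tn5 transposase cuts and tags DNA that nucleosomes leave accessible. The clusters, called chains here, were chosen by measured values: a region had to be in the list of peaks that the authors kept under their conservative irreproducible discovery rate (IDR) setting, have its strongest summit more than 1 kb from every protein-coding start site and be narrower than 1500 bp. Eligible neighbours on a chromosome with 5 kb or less between their edges were joined, and chains of 6 or more regions were kept. Of 80938 regions in that list 65426 were eligible, and 1047 of them lay in 159 chains. The background share of eligible regions in chains was therefore 1.6%. The series held 2 libraries of 50000 cells each, prepared from adult males of strain C57BL/6J at an age of 5 to 6 weeks, which the labels number as biological replicates 1 and 2 of 1 group and give the same donor code. No agent, allele or genotype other than the strain is named. A code in the labels, CFU-M, is left uninterpreted, and nothing there says how the cells were isolated or whether animals were pooled. With 1 group there was no contrast between conditions, so no test was made, and every share and median below is a description.

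Megakaryocyte progenitors are bone marrow cells committed to forming megakaryocytes, the large polyploid cells that shed platelets. Distal open regions in such cells are mostly enhancers, insulators and the promoters of non-coding genes, and enhancers that lie close together often act on the same gene, as in the locus control region of the beta-globin genes. GATA, ETS and RUNX transcription factors are the best known binders of enhancers in this lineage, while CTCF marks insulators and loop anchors.

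The DNA under the chains is shown first by the strongest region of each of the 6 chains with most regions, leaving out the chain in Tnfaip8, whose sequence is not shown. Each window holds the 60 bases on either side of the strongest summit, on the + strand of GRCm38.p6 (the mm10 assembly, from RefSeq). Capitals mark GATA letters (AGATAA or TGATAA), ETS letters (CAGGAAG or CCGGAAG) and RUNX letters (TGTGGTT) on either strand. They mark matches of letters, not binding.
Ccr1, chr9:123941490-123941610: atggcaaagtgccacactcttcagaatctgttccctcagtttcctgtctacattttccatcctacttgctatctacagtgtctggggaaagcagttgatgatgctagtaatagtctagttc
Zfp217, chr2:170164290-170164410: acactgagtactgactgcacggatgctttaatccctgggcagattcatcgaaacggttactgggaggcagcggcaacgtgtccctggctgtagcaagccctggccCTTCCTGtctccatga
Irf2bpl, chr12:86816285-86816405: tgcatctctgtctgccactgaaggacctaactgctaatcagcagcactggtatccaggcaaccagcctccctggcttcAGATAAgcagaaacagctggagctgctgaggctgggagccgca
Nanos3, chr8:84198515-84198635: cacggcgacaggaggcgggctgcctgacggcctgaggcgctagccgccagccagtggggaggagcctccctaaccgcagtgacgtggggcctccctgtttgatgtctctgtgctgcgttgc
Csk, chr9:57659897-57660017: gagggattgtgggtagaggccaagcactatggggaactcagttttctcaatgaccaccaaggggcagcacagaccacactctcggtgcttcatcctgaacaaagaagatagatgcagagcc
Tbc1d2b, chr9:90250547-90250667: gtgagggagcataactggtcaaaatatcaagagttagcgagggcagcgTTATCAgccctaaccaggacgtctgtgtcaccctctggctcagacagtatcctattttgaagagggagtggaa

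The 7 regions of the chain nearest to Mef2c are shown because Mef2c is a regulator of megakaryocytes with the largest chain on the list of such genes, with the same marks.
Mef2c, region 1, chr13:83064874-83064994: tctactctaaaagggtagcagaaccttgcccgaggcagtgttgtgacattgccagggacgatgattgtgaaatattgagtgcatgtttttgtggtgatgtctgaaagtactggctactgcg
Mef2c, region 2, chr13:83066518-83066638: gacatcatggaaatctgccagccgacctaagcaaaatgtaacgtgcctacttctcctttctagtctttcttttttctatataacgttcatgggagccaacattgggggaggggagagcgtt
Mef2c, region 3, chr13:83067647-83067767: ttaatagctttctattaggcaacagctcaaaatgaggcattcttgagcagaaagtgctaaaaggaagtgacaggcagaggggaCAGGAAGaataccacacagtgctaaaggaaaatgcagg
Mef2c, region 4, chr13:83072198-83072318: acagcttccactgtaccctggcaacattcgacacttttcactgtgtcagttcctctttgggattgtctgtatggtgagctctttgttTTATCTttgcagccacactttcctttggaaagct
Mef2c, region 5, chr13:83074361-83074481: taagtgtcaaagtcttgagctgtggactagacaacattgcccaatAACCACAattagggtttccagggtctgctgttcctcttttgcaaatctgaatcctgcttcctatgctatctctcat
Mef2c, region 6, chr13:83075582-83075702: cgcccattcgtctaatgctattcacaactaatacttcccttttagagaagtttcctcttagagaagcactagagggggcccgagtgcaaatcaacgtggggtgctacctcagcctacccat
Mef2c, region 7, chr13:83079427-83079547: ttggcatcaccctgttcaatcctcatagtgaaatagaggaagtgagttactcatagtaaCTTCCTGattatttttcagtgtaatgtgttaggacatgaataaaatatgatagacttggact

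The 4 strongest regions of the chain upstream of Hbb-y, the embryonic beta-like globin gene, are shown as the highest by signal in that chain, a choice made after their values were seen. Here the AP-1 consensus TGACTCA, which lies inside the motif of the erythroid and megakaryocytic factor NF-E2, is in capitals as well.
Hbb-y, region 2, chr7:103859233-103859353: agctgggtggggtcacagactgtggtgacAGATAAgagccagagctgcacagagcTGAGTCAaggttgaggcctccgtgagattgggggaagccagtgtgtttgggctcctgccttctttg
Hbb-y, region 3, chr7:103861071-103861191: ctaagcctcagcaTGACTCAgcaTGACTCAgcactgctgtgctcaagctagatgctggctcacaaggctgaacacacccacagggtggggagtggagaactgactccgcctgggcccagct
Hbb-y, region 6, chr7:103870813-103870933: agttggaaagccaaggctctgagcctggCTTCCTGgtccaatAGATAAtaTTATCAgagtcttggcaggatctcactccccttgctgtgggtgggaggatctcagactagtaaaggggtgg
Hbb-y, region 8, chr7:103877237-103877357: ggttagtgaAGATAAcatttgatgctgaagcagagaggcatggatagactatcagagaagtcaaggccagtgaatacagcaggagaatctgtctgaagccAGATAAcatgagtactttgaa

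Chains were short, and most of their length was not in the list. Among the 159 chains, 98 held 6 regions, 39 held 7, 15 held 8, 5 held 9, 1 held 10 and 1 held 11. Another 259 chains held 5 regions and fell just outside the rule. The median span was 14.3 kb, from 2.71 kb to 28.9 kb, and together the chains spanned 2.41 Mb, of which 19.3% lay inside the regions themselves. Across the 20 chromosomes with chains the share of eligible regions that lay in chains ran from 0.715% on chromosome 14 to 2.49% on chromosome 6. Among chains of 5, those with the highest summed signal were nearest to Synpr (summed signal 55.2), Cd84 (54.4) and Pln (51.2). Among the kept chains of 6 the highest sums were those of Eef1a1 (60.8), Spag9 (58.2) and Nap1l1 (53.5).

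**Figure D1:**
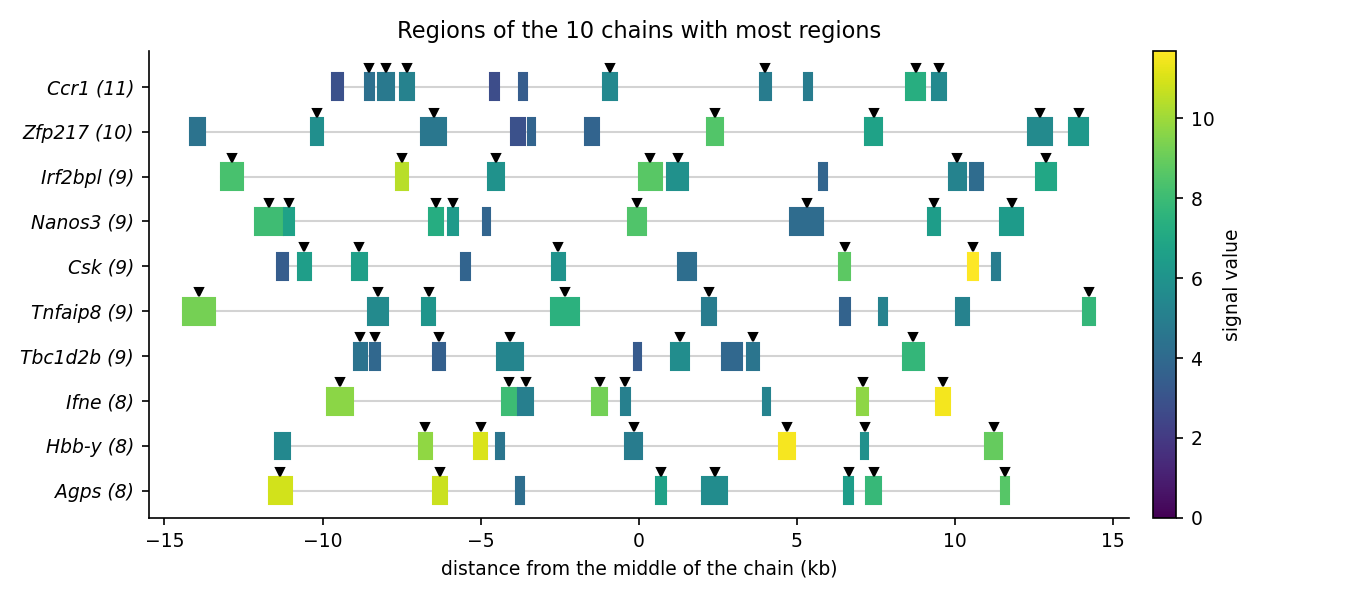
Positions of the regions in the 10 chains with most regions, as distance from the middle of each chain in kb. Boxes are regions drawn to scale and shaded by their signal value in the list of both libraries, triangles mark regions found in both replicates' own lists, and the number after each gene is the number of regions. Signal varies among the regions of every chain, and no chain has a triangle over every region.

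Chains lay between genes more often than other distal regions did. Of the chain regions 58.1% were intergenic, 38.7% intronic and 3.25% exonic, against 47.2%, 47.6% and 5.29% of the 64379 other eligible regions. In 80 chains every region was intergenic, in 44 every region was intronic, and 55 lay wholly inside a coding gene body. The start site of the nearest coding gene was a median of 16.9 kb from the chain, within 10 kb for 63 chains and over 50 kb away for 23. Of the chain regions 8.88% (93) lay within 1 kb of the start of a non-coding gene, against 4.71% of other regions. At least 1 non-coding start lay within the span of 53 chains. A promoter region lay between the members of 9 chains, and no distal region of 1500 bp or more did. Such wide distal regions were rare, with 123 among the 80938 regions of the list. Like counts for stretches outside chains are not given here, so these counts in spans have no background.

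The signal value, which the authors' peak caller gave each summit and which is unitless in the sources used here, was low in chains. The median over chain regions was 5.74, against 8.78 over other eligible regions, a log2 ratio of -0.61. The median chain region stood at percentile 14.8 of all regions in the list by signal, against 48.7 for other eligible regions. Up to chains of 6 the median fell with crowding: it was 9.94 for regions with no neighbour within 5 kb, 8.24 in pairs, 6.99 in chains of 3, 6.56 in chains of 4, 6.21 in chains of 5 and 5.72 in chains of 6. It did not fall further in chains of 7, 8 and 9, at 5.79, 5.96 and 5.88. Both libraries showed the same order up to chains of 6 in their longer pseudoreplicated lists, with medians from 8.71 (no neighbour) to 5.42 (chains of 6) in replicate 1 and from 9.17 to 5.72 in replicate 2. Chains built afresh from each replicate's own IDR-thresholded list gave log2 ratios of -0.66 and -0.64, a mean of -0.65 ± 0.00842 (SD, n = 2).

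The second score of each summit, the -log10 p that the authors deposited, differed little with crowding. Its median was 48.4 in chain regions and 50.04 in other regions, at percentiles 43.3 and 44.9 of the list, and it was 51.3 for regions with no neighbour and 47.3 in chains of 6. At matched signal the chain regions had the higher -log10 p. In the lowest quintile of signal, which held 57.1% of the chain regions, the medians were 35.6 in chains and 27.5 outside them. In the second quintile they were 62.0 and 32.9, and in the middle quintile 85.5 and 43.7. Chain regions had a median width of 387 bp against 419 bp, and at matched signal the sign varied, with 332 bp against 327 bp in the lowest quintile of signal, 491 bp against 414 bp in the middle one and 490 bp against 514 bp in the highest. How the signal value depends on coverage around a peak was not tested, because coverage tracks were not used here.

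**Figure D2:**
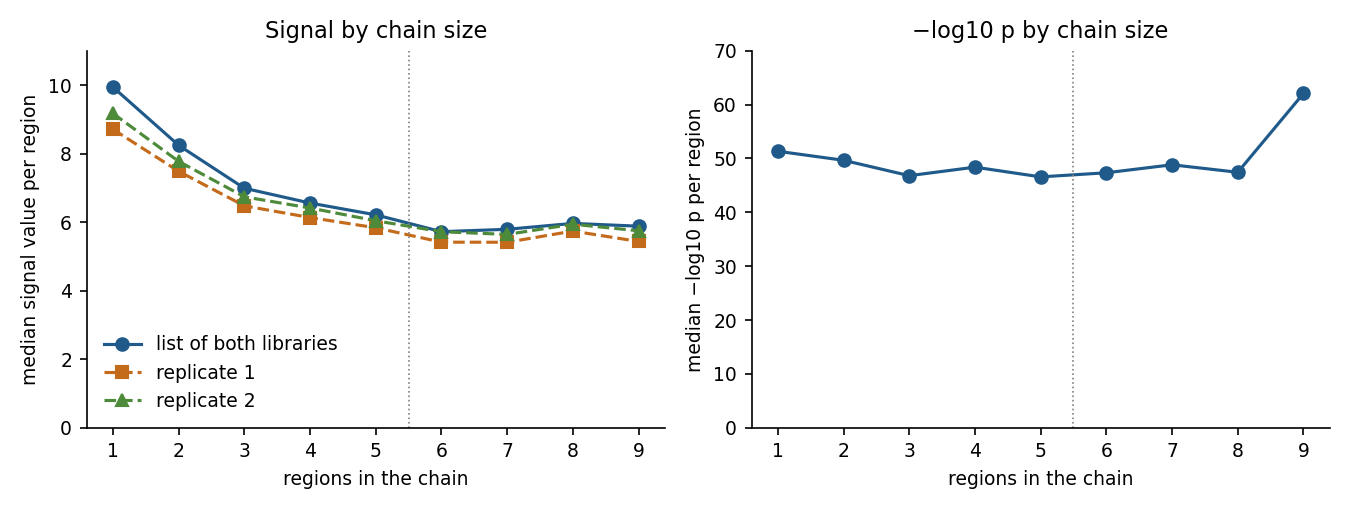
Median signal value per region (left, unitless) and median -log10 p per region (right) by the number of regions in the chain, from 1 for regions with no neighbour within 5 kb to 9. Circles are the list of both libraries, squares and triangles the longer lists of replicate 1 and replicate 2, and the dotted line separates chains that were kept. Signal falls from 9.94 to 5.72 between 1 and 6 regions while -log10 p stays between 46.6 and 51.3, and the last point of each line rests on 5 chains.

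Regions of chains recurred in the replicates about as often as other regions. A region was counted as shared when at least 50% of it, or of its partner, was covered in the replicate's own IDR-thresholded list. Replicate 1 held 70.3% of chain regions (background over all eligible regions 70.2%) and replicate 2 held 68.5% (background 68.3%). Both held 61.2% (641 of 1047), where the background was 59.7%. Neither list held 22.4% (235), against 21.1% of other eligible regions. In the longer pseudoreplicated lists, 95.3% were in both replicates, where the background was 97%. These lists were made from the same 2 libraries as the list that chose the members, so the shares say how far the libraries share the regions and are no independent support.

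At matched signal the sharing differed, and at matched -log10 p it differed little. In the lowest quintile of signal 41.8% of chain regions and 20.7% of other regions were in both own lists, and in the second quintile 78.4% and 35.0%. In the lowest quintile of -log10 p the shares were 0% and 1.20%, in the second 33.3% and 27.96%, in the middle quintile 76.4% and 73.5%, and in the fourth quintile 98.6% and 95.6%. The IDR threshold itself ranks peaks by a score, which is not named in the sources used here. For the 641 regions in both lists, the log2 ratio of replicate 2 to replicate 1 had a median of -0.01 and an SD of 0.17. The ratio was centred on the median of all matched regions in the conservative list, and other eligible regions had an SD of 0.19.

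**Figure D3:**
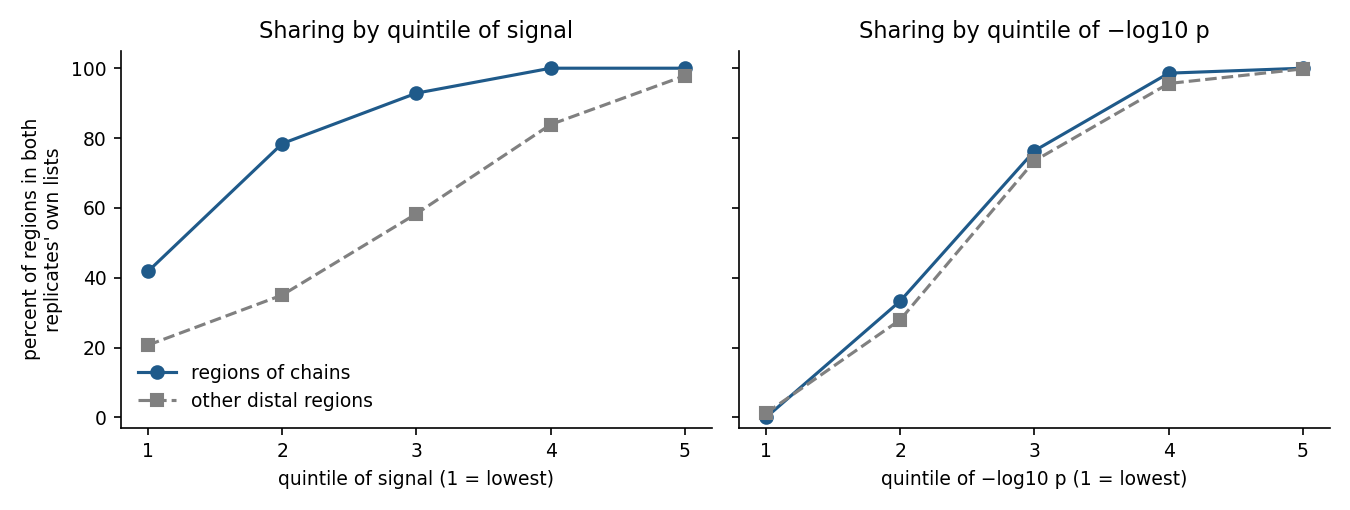
Percent of regions found in both replicates' own lists, by quintile of signal value (left) and of -log10 p (right), with quintiles set over all eligible regions. Circles are chain regions and squares other distal regions. The curves stand apart on the left (78.4% against 35.0% in the second quintile) and lie close together on the right (76.4% against 73.5% in the middle quintile).

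Whole chains recurred less than their regions did. The same rule gave 31 chains in replicate 1's own list and 29 in replicate 2's (mean 30 ± 1.41, SD, n = 2), which hold fewer regions (61735 and 60098). Of the 159 chains 28 overlapped a chain in each replicate, 16 did so in both and 119 in neither. In the longer lists 132 were rebuilt in both replicates. At least 3 regions were in both own lists in 138 chains, every region was in 9, and no region was in 1, the chain nearest to Pim1. Chain medians in the longer lists ran from 3.64 to 9.37 in replicate 1 and from 3.65 to 9.14 in replicate 2. With no scaling between the libraries, 110 of 159 chains had the higher median in replicate 2. All matched regions of the conservative list leaned that way, with a median log2 ratio of 0.0688 in the longer lists. Centred on that median, the ratio was -0.0111 for chain regions and -0.0043 for other eligible regions.

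**Figure D4:**
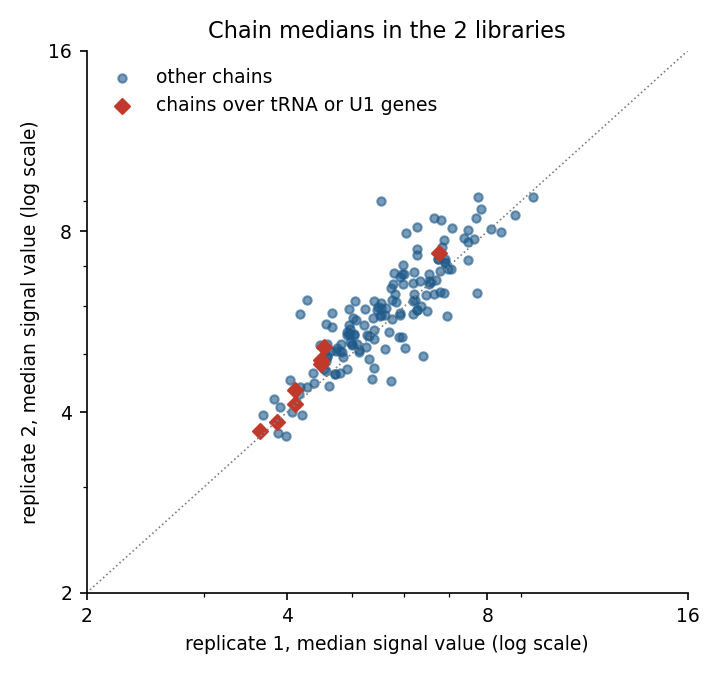
Median signal value of each of the 159 chains in the longer list of replicate 1 (horizontal, log scale) and replicate 2 (vertical, log scale). The dotted line is equality and diamonds mark the 8 chains over tRNA or U1 genes. Most chains lie near the line, 110 of them above it. All matched regions of the conservative list lean the same way, with a median log2 ratio of 0.0688.

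The 16 chains rebuilt in both replicates' own lists included those near Hbb-y, Actb, Eef1a1, Spag9, Ifngr2 and Tbc1d2b, described further on. Among the others were the chains of Selplg, which encodes the P-selectin ligand PSGL-1, with 8 regions and medians of 6.47 in replicate 1 and 6.28 in replicate 2, and of Pttg1, which encodes securin, with 7 regions and medians of 7.39 and 7.79. Rpl14, a ribosomal protein gene, had 6 regions with medians of 7.63 and 7.77, and Rassf3 6 regions with medians of 5.00 and 5.17. In these 4 chains 7 of 8, 6 of 7, 5 of 6 and 3 of 6 regions were in both lists.

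Position inside a chain went with signal. The first and last regions of chains had a median signal of 6.39 (318 regions), against 5.57 for the 729 inner regions. The strongest region was the first or last in 73 chains, or 45.9%, while 30.4% of chain regions held such a place. Within a chain the strongest region was a median of 1.54 times the chain's median, and 3.22 times at most.

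The chain with most regions held 11 and lay 26.2 kb from Ccr1, a receptor for inflammatory chemokines (chr9:123923113-123942508, intergenic). Its signal values ran from 2.71 to 7.32, its strongest region read 6.81 in replicate 1 and 7.67 in replicate 2, and 7 of its regions were in both own lists. Zfp217, a zinc finger transcriptional regulator, was nearest to 2 chains. The chain of 10 (chr2:170147680-170176082) started 5.00 kb from the gene and had its strongest region at 9.57 in replicate 1 and 6.54 in replicate 2, a wider gap than the replicates showed in its other regions. The chain of 7 lay 75.7 kb away (chr2:170218343-170238267), with 6 of 7 regions in both lists. Anxa3, Eapp and Tbl1xr1 were the other genes nearest to 2 chains.

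The chains of 9 regions differed in where they sat. The chain nearest to Irf2bpl lay 47.7 kb from it in intergenic DNA (chr12:86810658-86837072), with values of 3.76 to 10.4 and 7 regions in both lists. At Csk, the kinase that keeps Src-family kinases inactive, the chain crossed the start of the gene (chr9:57637983-57660843), and its strongest region, 6.33 kb from the nearest start site, read 9.87 in replicate 1 and 12.3 in replicate 2. Tnfaip8 held its chain inside the gene (28.9 kb, the longest span), with a median signal of 5.53. Tbc1d2b, of a family of Rab GTPase regulators, also held its chain inside the gene (chr9:90232815-90250825). There the median signal was only 4.44, yet 8 of 9 regions were in each replicate's list, 7 were in both, and the median -log10 p was 62.1.

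The chain of 9 nearest to Nanos3 (chr8:84186496-84210776) spanned the genes of miR-23a, miR-27a and miR-24-2, which are known to be made from a shared primary transcript. Its strongest region, at 8.49, read 8.05 in replicate 1 and 8.67 in replicate 2, and its eighth region lay 552 bases from the annotated start of Mir23a and read 5.97 and 6.71. Of its regions 8 were in both lists, and 5 held the CTCF consensus, the most of any chain. Nanos3 itself, an RNA-binding protein of germ cells, had no promoter peak. Another miRNA cluster, Mir212 and Mir132, lay in the chain of 8 nearest to Hic1, a transcriptional repressor (chr11:75153226-75173858), where 7 regions were in both lists and the chain medians were 5.95 in replicate 1 and 6.80 in replicate 2. The third chain with a miRNA gene was that of Ifngr2, which spanned Mir6367. The mature miRNAs of the first and second clusters are shown with the seed, bases 2 to 8, in capitals (RefSeq, GRCm38.p6). In miR-132-3p and miR-212-3p the seeds are the same, and in the others they differ.
mmu-miR-23a-3p: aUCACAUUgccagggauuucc
mmu-miR-27a-3p: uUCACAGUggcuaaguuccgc
mmu-miR-24-3p: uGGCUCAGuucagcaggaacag
mmu-miR-132-3p: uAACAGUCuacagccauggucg
mmu-miR-212-3p: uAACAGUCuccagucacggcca

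Agps, an enzyme of ether lipid synthesis, and Nfe2l2, which encodes the stress-response factor NRF2, flanked a chain of 8 (chr2:75762974-75786381). Its first region was nearest to Nfe2l2 and the other 7 to Agps. The first region read 10.4 in replicate 1 and 10.3 in replicate 2, and the second 10.04 and 10.5. The weakest, at 4.19 in the list of both libraries, was in neither own list, and all other 7 were in both. A further region lay 31 bases from the start of the non-coding gene Gm13657 and read 4.47 and 6.99, the widest gap between the replicates in this chain. The chain of 8 nearest to Ifne, which encodes interferon epsilon, lay in the interferon gene cluster (chr4:88859012-88878717). It had a median signal of 8.59, and its strongest region, the last, read 11.3 in replicate 1 and 10.9 in replicate 2. All 8 regions were in replicate 2's own list and 7 in replicate 1's.

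Upstream of Hbb-y a chain of 8 regions covered 23.0 kb (chr7:103854614-103877597), beginning 1.40 kb from the start of the gene and reaching towards the olfactory receptor gene Olfr66. This is the stretch in which the locus control region of the mouse beta-globin genes is known to lie. The 4 strongest regions read 8.72, 10.6, 10.5 and 8.50 in replicate 1 and 10.1, 10.5, 11.9 and 8.36 in replicate 2, in the order in which they are printed. The other 4 lay lower, at 4.43 to 5.34 in replicate 1 and 4.15 to 6.04 in replicate 2. The list that ranked them was made from the same 2 libraries, so this order follows from the choice. GATA letters were found in the windows of 4 regions and AP-1 letters in 3. Of the 8 regions 6 were in both own lists, and the chain was rebuilt in each replicate. Hbb-y had no promoter peak.

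Megakaryocyte regulators were nearest to 2 of 159 chains (1.26%, Clopper-Pearson 95% interval 0.153 to 4.47, counting error only), against 0.520% of other eligible regions. No chain was nearest to any of 44 platelet genes, a list nearest to 0.436% of other eligible regions. At Mef2c, a MADS-box transcription factor, a chain of 7 lay 424 kb from the gene around the start of the non-coding gene 2310067P03Rik (chr13:83064643-83079626). Its strongest region read 11.3 in replicate 1 and 12.5 in replicate 2, and the region nearest to the non-coding start read 10.2 and 10.5. The other 5 lay at or below 7.12 in both libraries, and 4 of 7 were in both own lists. In Erg, an ETS factor also known for its part in endothelial cells, the chain of 6 lay inside the gene in introns (chr16:95434449-95452810). Its values were low and even, from 4.52 to 5.69 in the list of both libraries, and 3 of its 6 windows held GATA letters. All 6 regions were in replicate 2's own list and 4 in replicate 1's.

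Gene lists of other cell types were nearest to 0, 1 or 2 chains each. Ccr1 was the only monocyte and macrophage gene nearest to a chain, a share of 0.629% of chains against 0.190% of other eligible regions nearest to that list. Klrb1c, which encodes an NK cell receptor, was the only T and NK cell gene, at 0.629% against 0.123%. The chain of 6 at Klrb1c (chr6:128796244-128808881) ran from 3.10 to 13.1 in signal, with 5 regions in both lists. Of its 6 windows 2 were near-copies of other eligible windows, which leaves their counts uncertain. Of the cytokine receptor and JAK-STAT list, Il21r and Ifngr2 each had 1 chain, 1.26% of chains against 0.250% of other regions. All 6 regions at Ifngr2, a subunit of the interferon gamma receptor, were in both lists, while at Il21r 4 of 7 were in replicate 1 and 2 in replicate 2. The erythroid, granulocyte, mast cell, B cell, stem cell, cell cycle, liver, neuronal and muscle lists were nearest to no chain. Few other eligible regions were nearest to these lists either, from 0.0482% (muscle) to 0.283% (stem cell). Counting any list gene that started within 50 kb of a chain, the erythroid and platelet lists had 1 chain each and the monocyte and T and NK cell lists 2 each. The erythroid one was the chain upstream of Hbb-y, with the adult beta-globin genes Hbb-bs and Hbb-bt. Megakaryocyte regulators fell from 2 chains to 1 by this count, as the chain at Mef2c lay over 50 kb from the gene. With 159 chains a count of 0 allows a share of up to 2.29% (Clopper-Pearson 95% bound). Over all blood lists the share was 3.77% (6 chains, interval 1.40 to 8.03), against 2.12% of other eligible regions. For a list with 1 chain the interval was 0.0159 to 3.45, and for the cytokine receptor list 0.153 to 4.47. Each of these intervals contains the share of other regions. They cover counting error only, and a share of chains is set beside a share of regions.

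Actb and Eef1a1 were the housekeeping genes nearest to chains. The Eef1a1 chain stood out by its median signal, and the Actb chain, with a median of 7.91, by its strongest region only. These 2 chains were 1.26% of all, against 0.0885% of other eligible regions nearest to the housekeeping list. The 7 regions near Actb, which encodes beta-actin, lay between it and Fscn1, an actin-bundling protein (chr5:142920431-142938874). All 7 were in both own lists, and the strongest, at 16.7 the highest signal of any chain region, read 15.6 in replicate 1 and 16.1 in replicate 2. The 6 regions near Eef1a1, a translation elongation factor (chr9:78516091-78533868), had the highest median signal of any chain at 9.67, and all 6 were in both lists. Next came Nap1l1, a histone chaperone, at 9.10, and Spag9, a scaffold of JNK signalling, at 9.01. Nap1l1 had 3 of 6 regions in both lists and Spag9 6 of 6. By the share of regions in both lists, the chains of Pim1 (0 of 6) and Gtf2a1 (1 of 6) were among the lowest. Their median -log10 p values were 38.4 and 42.9.

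The genes nearest to chains were mostly open at their promoters. A promoter peak was defined as a region reaching within 1 kb of a coding start site. Chain regions and other eligible regions whose edge reached that far also counted. Such a peak was found at 134 of the 155 nearest genes (86.5%), against 71.7% of the 14396 genes nearest to any other eligible region. The background was 61% of all protein-coding genes. The median promoter signal was 9.07 for the genes of chains and 11.2 for all genes with a peak. Among the exceptions were Hbb-y, Nanos3, Klrb1c, Ifne and Olfr1423. Of 12 megakaryocyte markers 10 had a promoter peak, beside 5 of 6 erythroid, 5 of 6 granulocyte, 4 of 6 monocyte and macrophage, 3 of 6 B cell and 1 of 6 T and NK cell markers. No marker gene was the nearest gene of a chain. The part of cells of other types in the chains was not tested.

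Some chains lay over clusters of small RNA genes. RNA polymerase III transcribes tRNA genes from a promoter inside the gene, and U1 genes, which encode a core RNA of the spliceosome, are read by RNA polymerase II; both kinds occur in many near-identical copies. Of the 149 eligible regions that overlapped one of the 403 RefSeq tRNA genes, 32 (21.5%) lay in chains, where the background was 1.6%. Of 59 regions over snRNA genes 12 (20.3%) lay in chains. Regions over lncRNA genes stood at 2.30% and those over miRNA genes at 5.13% (2 of 39), and none of 49 over snoRNA genes was in a chain. Such regions made up 3.06% (tRNA) and 1.15% (snRNA) of chain regions, so most chains had none of them.

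In 8 chains at least 3 regions overlapped a tRNA or snRNA gene, and their nearest coding genes were Fcgr3, Prss16, Abt1, Btn1a1, Hist1h4h and Olfr1423 (tRNA) and Eapp, for both U1 chains. These chains were singled out after their values were seen. Their regions had a median signal of 4.47 and a median -log10 p of 62.5, against 5.80 and 47.8 in the other 151 chains. Both own lists held 82% of these regions (41 of 50), against 60.2% in the other chains, and 4 of the 8 chains were rebuilt in both replicates, against 12 of 151. The chain nearest to Olfr1423 (chr19:12002164-12012612) had a tRNA gene under each of its 6 regions. Its regions read 7.37, 4.69, 2.67, 4.02, 3.92 and 4.197 in replicate 1 and 8.73, 4.48, 3.03, 4.21, 4.03 and 5.06 in replicate 2, with the first region the highest in each. Of 37 tRNA genes under chain regions 29 held the B box letters (GGTTCGA, any 2 bases, CC) on the gene's strand. A strongest summit lay inside 8 of the 37. Of 139 tRNA genes under other eligible regions 100 held these letters and 27 held a strongest summit inside. The sequences of 3 tRNA genes of the Olfr1423 chain that held the B box letters are shown on their own strand, with those letters in capitals (GRCm38.p6).
n-TFgaa6, chr19:12002236-12002308, + strand: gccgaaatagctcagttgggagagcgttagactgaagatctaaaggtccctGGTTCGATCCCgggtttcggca
n-TLtaa4, chr19:12011086-12011168, - strand: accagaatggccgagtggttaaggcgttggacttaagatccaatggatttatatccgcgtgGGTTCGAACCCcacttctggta
n-TVtac1, chr19:12011931-12012003, + strand: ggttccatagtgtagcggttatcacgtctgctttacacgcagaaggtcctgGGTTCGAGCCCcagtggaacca

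Both U1 chains near Eapp were mirror images. One chain (chr12:54710017-54719846) and its neighbour (chr12:54729102-54738906) each held 3 U1 genes of 164 bp, and each gene had 1 region over its left end and 1 over its right end, with the middle of the gene in neither. The closest match was between the fifth region of the first chain, at 6.31, and the second region of the other, at 6.32, both 603 bp wide. In replicate 1 these read 6.15 and 6.33, and in replicate 2 6.39 and 6.06. In each chain 5 of 6 windows shared at least 50% of their 31-base words with another eligible window. How reads that map to several copies were placed is not given in the sources used here, so counts for these regions are uncertain. The same holds for 6 of the 7 regions near Fcgr3, 5 of 6 near Gm1604a and 2 of 6 near Klrb1c. In all, 8 chains held at least 1 region of this kind. Over all chain regions 2.48% were near-copies of this kind, against 0.954% of other regions.

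**Figure D5:**
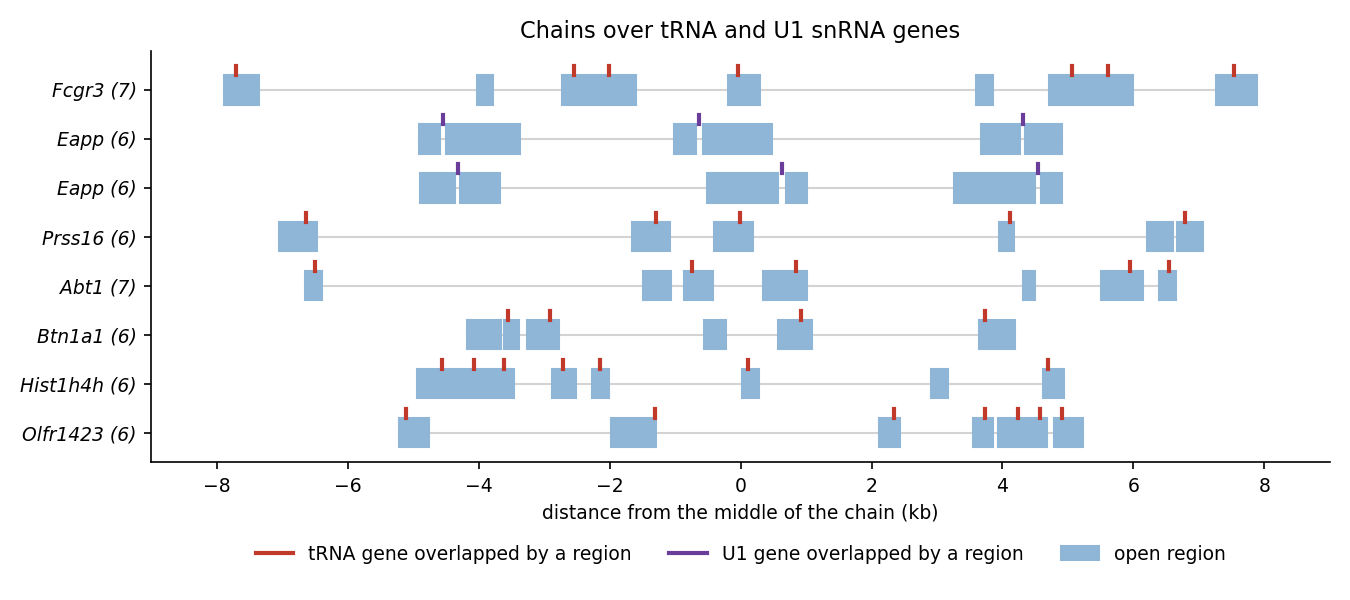
Regions (boxes, to scale) of the 8 chains with at least 3 regions over tRNA or U1 genes, as distance from the middle of the chain in kb. Ticks above the boxes mark tRNA and U1 genes that a region overlaps, and the number after each gene is the number of regions. The U1 genes near Eapp sit in the gaps between paired boxes, and these chains mirror each other.

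The motif content of chains was close to that of other distal regions. In windows of 75 bases on either side of the strongest summit, searched on both strands, GATA letters (AGATAA or TGATAA) were in 19.6% of chain regions (Wilson 95% interval 17.3 to 22.1) and 21.0% of other regions. ETS letters (CAGGAAG or CCGGAAG) were in 15.7% and 15.6%, RUNX (TGTGGTT) in 7.74% and 9.32%, and AP-1 (TGACTCA) in 7.55% and 6.35%. The widest difference was in SP (GGGCGG), at 11.7% (9.85 to 13.7) and 6.87%, in windows whose median GC content was 52.3% in chains and 50.3% outside them, with a mean of 3.27 and 2.56 CpG. CTCF (CC, any 3 bases, AG, any 2 bases, GGC) went the other way, at 14.6% (12.6 to 16.9) and 17.97%. Among the 40% of eligible regions with the lowest signal, CTCF stood at 13.8% in chains and 13.8% outside, while SP stayed at 11.6% and 7.05%. These intervals cover counting error only, and neighbouring regions are not independent.

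Within chains the letters were spread over many loci. At least 1 region held GATA letters in 112 chains, ETS letters in 106 and RUNX letters in 63, and all 3 kinds were found in 29. By region the share was close to the background, with any of the 3 in 38.6% of chain regions and 39.9% of other regions. The most GATA regions in a chain was 4, as at Tbl1xr1, Nsmaf, Rbpms, Pim1 and Hbb-y. Csk had the most ETS regions, with 5 of 9.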

How the data were processed

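The files were peak lists on mm10 made from each of the 2 libraries and from both together, per the labels and the deposited file descriptions. The signal value of each summit was given by the authors' peak caller, with no scaling between libraries stated, and the -log10 p of each summit was deposited by the authors. Not given in the sources used here are the aligner, the peak caller, a Tn5 offset, and how duplicates and reads matching several places were treated, each of which can change how many regions are listed and how they are spaced. Depth per library is unknown, and all intervals cover counting error only.

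Summits that shared an interval were merged, and a region took the signal, -log10 p and position of its strongest summit. Coordinates are 1-based on GRCm38.p6, with GENCODE M21 (21938 protein-coding genes, 54361 start sites) and RefSeq genes for small RNAs. A chain takes the gene nearest to most of its regions. Near-copies were windows of 151 bases with at least 50% of their 31-base words, on either strand, in another eligible window. Chains, sharing and gene assignment were computed in Python 3.11.15 with pandas 2.3.3, numpy 2.4.6 and pysam 0.24.0, and chain building and sharing were tested on simulated data. No fit or test was run, since there is 1 group.

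The members, 16 gene lists and 21 motif families were chosen with earlier results of these data known. The rule for named chains took the 10 with most regions, the 5 with the highest median signal, the 3 with the longest span, chains nearest to megakaryocyte regulator or platelet genes, the 2 largest for every other list, the 3 with the smallest share in both replicates and 3 chains on either side of the size limit. Chains with small RNA or miRNA genes, the genes with 2 chains, chains named as rebuilt in both replicates, the chain near Hbb-y in its sequence detail and the chains named for motif counts were singled out after their values were seen. Some items that this rule names are not reported here. The liver gene Tf had no match in the annotation. The lists of both libraries other than the conservative one, each replicate alone, and other distances, sizes and filters were tried as alternatives.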

Additional observations from a re-analysis of the deposited data

How the results depend on the processing

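Chain regions had the lower median signal under every alternative that gave chains, with log2 ratios from -0.88 to -0.31, but the number of chains followed the settings closely. Among lists, the IDR-thresholded list of both libraries gave 1.52% of eligible regions in chains, the replicated list 1367 chains, 8.22% and -0.31, and the pseudoreplicated list 1336 chains, 8.397% and -0.35. The stronger 50% of regions gave 0 chains, 0% and no ratio. Leaving out either replicate, which means using the other's own list, gave 29 to 31 chains, 0.398% to 0.411% of regions and ratios of -0.66 to -0.64. A gap of 3 kb gave 19 chains, 0.185% and -0.88, a gap of 10 kb 1094 chains, 12.9% and -0.34, and gaps measured between summits 1.12% and -0.67. A minimum of 5 regions gave 418 chains, 3.58% and -0.56, and a minimum of 8 gave 22 chains, 0.284% and -0.60. A start-site distance of 0.5 kb gave 1.76%, one of 2 kb 1.502% and -0.64, start sites of all annotated genes 1.24% and -0.63, no width limit 1.63%, a limit of 1000 bp 1.40% and -0.60, and ending chains at promoter or wide regions 1.51%. Sharing rose to 97.6% and 96.8% with the longer lists of replicates 1 and 2, and replicate 2's share was 67.0% when 50% of both regions had to be covered. After seeing the data, leaving out near-copies was tried, which gave 152 chains, 1.55% and -0.60, and leaving out regions over tRNA, snRNA or rRNA genes, which gave 150 chains, 1.52% and -0.60. The cause of these differences was not tested, beyond what the settings fix by construction. No paired analysis was possible because there is 1 group. Depth limits are unknown without read counts.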

Other observations

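The narrowest chain held 6 regions in 2.71 kb of chromosome 4, 829 kb from its nearest coding gene Tyrp1, and 71.5% of that stretch lay inside its regions. The starts of the non-coding genes Gm11408 and Gm11410 lay within it, and its median gap was 83 bp. Of its regions 5 were in both own lists. The chain was rebuilt in neither own list, and among the longer lists only in that of replicate 1. Over the 159 chains the next highest open share was 45.1%, in the chain nearest to Gm21887 on chromosome X, and the median was 18.9%. The chain nearest to Cd69, an early activation antigen of lymphocytes, had 8 regions with a median signal of 3.86, and it was rebuilt in both replicates, with 6 of 8 regions in both own lists.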
